A study of Homo sapiens with 36 samples.

Results

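The 7 human APOBEC3 genes, APOBEC3A, APOBEC3B, APOBEC3C, APOBEC3D, APOBEC3F, APOBEC3G and APOBEC3H, were followed in RNA-seq libraries of the ovarian cancer cell line A2780. They were chosen by name, and all 7 were found by their Ensembl identifiers among the 57820 genes of the deposited table. The series held 36 libraries in 12 conditions, with 3 libraries in each. The cells were the platinum-sensitive parental line (wt), a platinum-resistant line derived from it under cisplatin (cis), and cells that grew out of cis cells after a longer time without serine and glycine (cis SSP). All 3 thus share the A2780 background, and cis SSP is one population derived from cis. The medium was either complete or lacked serine and glycine (-SG), and part of the cells received carboplatin (carbo), a platinum drug that crosslinks DNA. The conditions were wt, wt carbo, wt -SG and wt -SG carbo, and the same 4 for cis and for cis SSP. The labels give the carboplatin dose as 6 with a unit whose prefix is lost. According to the legends of the study the 3 libraries of each condition are technical replicates. The SDs and p-values below therefore measure the spread between these libraries and not that between independent cultures.

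APOBEC3 proteins are zinc-dependent enzymes that turn cytosine into uracil in single-stranded DNA. They are best known as restriction factors, which mutate the reverse-transcribed DNA of retroviruses and retroelements, and several of them are induced by interferon. APOBEC3A and APOBEC3B also act on the genome of the cell itself and are the members most often tied to the clustered C-to-T and C-to-G changes of tumor genomes. The uracil they leave is removed by glycosylases such as UNG and repaired by base excision repair.

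All 7 genes lie head to tail on the plus strand of chromosome 22 (GRCh37), in a cluster of 151.3 kb in which the table has no other protein-coding gene. APOBEC3A (ENSG00000128383.8) runs from 39348746 to 39359189, APOBEC3B (ENSG00000179750.11) from 39378352 to 39388809 and APOBEC3C (ENSG00000244509.3) from 39410262 to 39416357. APOBEC3D (ENSG00000243811.3) follows at 39417118 to 39429282 and APOBEC3F (ENSG00000128394.12) at 39436609 to 39451977. APOBEC3G (ENSG00000239713.3) is at 39473072 to 39483748 and APOBEC3H (ENSG00000100298.11) closes the cluster at 39493229 to 39500072. The counts are of reads on exons, so the family resemblance of these genes bears on each value. Of all 65-base stretches in the exons and spliced transcripts of APOBEC3B, the length of a read here, 22.4% were also found in another member, and 12.2% in APOBEC3A. The share was 13.7% for APOBEC3A, 12.2% for APOBEC3D, 9.63% for APOBEC3F, 4.85% for APOBEC3G and 0.644% for APOBEC3C, and no such stretch of APOBEC3H was shared. The antisense RNA APOBEC3B-AS1 overlaps 244 exon bases of APOBEC3B, or 12.9% of its exons, and the strand setting of the counting is not given, so its reads cannot be told apart from those of APOBEC3B there.

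Total counts on genes were 13074937 to 20441582 per library, with a median of 17663485.5. Libraries of a condition differed by more than sampling noise in all 36 pairs compared, with a mean chi-square over genes of 1.20 to 123, where 1 would be sampling noise alone. Library 25 of cis SSP (its replicate 1) and library 32 of cis SSP -SG (its replicate 2) stood apart from the others of their conditions, also in the APOBEC3 genes. The main tests that rest on libraries 25 and 32 are therefore given with and without them, while levels include them unless stated. Ratios of summed counts and fits with no filter on low counts are given with both libraries only. Library 11 of wt -SG carbo (its replicate 2) differed less, with chi-square values of 25.6 and 24.6 to the others of its condition, which had 1.20 between them. It was kept, and was the highest of its condition for APOBEC3B, APOBEC3C and APOBEC3G. In cis -SG carbo, replicates 2 and 3 had 17.9% and 14.9% of reads on no feature, against at most 9.31% in every other library. The summed level of 7 markers of an ovarian epithelial tumor was 1.83 to 23.6 CPM (library counts scaled to a common depth) in wt, 16.4 to 46.0 in cis and 9.71 to 19.9 in cis SSP libraries. KRT18, the gene of this list with the highest median level, was counted in every library, while PAX8 reached at most 10 counts and MUC16 at most 3. Leukocytes are the cells richest in most APOBEC3 mRNAs. Of their 8 markers, CD3E had no count in the 36 libraries and PTPRC, which encodes CD45, at most 1, and the summed level of the list was 0.477 to 12.9 CPM in wt, 0.167 to 0.778 in cis and 0.0554 to 0.502 in cis SSP libraries. The upper end in wt came from ITGAM, which had up to 187 counts. The summed level of 5 fibroblast markers, mostly the collagen genes COL1A1 and COL1A2, was 533 to 1802 CPM in wt, 2.50 to 6.20 in cis and 38.1 to 54.5 in cis SSP libraries, and that of the endothelial markers VWF and CDH5 was at most 0.420. The part of these differences in the APOBEC3 values was not tested.

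Detection was set at 10 or more counts in each of the 3 libraries of a condition. By this measure APOBEC3B, APOBEC3C, APOBEC3D and APOBEC3F were detected in 12 of 12 conditions, APOBEC3G in the 4 wt conditions only, and APOBEC3A and APOBEC3H in none. Thus 5 members were detected in each wt condition and 4 in each condition of cis and cis SSP.

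APOBEC3A, an enzyme known from cells of the myeloid lineage, was barely counted. It had 32 counts in the 36 libraries together, none in 18 of them, and never more than 3. In wt carbo the libraries had 3, 2 and 2 counts and in wt they had 1, 0 and 0. The ratio of the summed counts of wt carbo to wt, corrected for depth, was 7.45, with an exact 95% interval of 0.957 to 336 that covers counting error only. In wt -SG, cis and cis carbo no library had a count. With 3 counts as the limit that such a 0 allows over a condition, its level there was at most 0.0548, 0.0577 and 0.0641 CPM. The wt -SG carbo libraries had 0, 2 and 3 counts, and the exact 95% lower limit of their ratio to wt -SG was 1.11 (counting error only). For this pair edgeR with no filter on low counts made no call (adjusted p = 0.0521). The cis SSP conditions had 0 to 2 counts per library, so a change of APOBEC3A was not detectable at this depth in most comparisons.

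APOBEC3H, a single-domain enzyme that shares no 65-base stretch with the other members, was rare, and wt cells held 86 of its 111 counts. The wt libraries had 4, 2 and 5 counts and the wt carbo libraries 18, 11 and 5, so these conditions touch at their ends. In wt -SG there were 4, 3 and 1 counts, and in wt -SG carbo 12, 13 and 8, which do not overlap. The depth-corrected ratios of carboplatin-treated to untreated cells were 3.29 in complete medium (exact 95% interval 1.63 to 7.19, counting error only) and 4.99 without serine and glycine (2.26 to 12.5). The usual filter on low counts left APOBEC3H out of these fits. With no such filter, edgeR gave a log2 fold change of 1.66 (SE 0.488, adjusted p = 0.00201) in complete medium and of 2.24 (SE 0.540, adjusted p = 1.31e-04) without serine and glycine. The 3 cis libraries had no count, which allows at most 0.0577 CPM, so that the observed level in wt was at least 3.45-fold higher than in cis cells. With the counting error of the 11 wt counts included, the exact 95% upper limit of the ratio of cis to wt was 0.424. In the 12 cis SSP libraries APOBEC3H had 1 to 3 counts. The depth-corrected ratio of wt to cis SSP, both untreated and in complete medium, was 1.61 (exact 95% interval 0.545 to 5.29, counting error only).

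APOBEC3G, the member known best for restricting HIV-1 that lacks Vif, was counted mainly in wt cells. Its counts were 32, 25 and 34 in wt, 99, 76 and 79 in wt carbo, 31, 26 and 28 in wt -SG, and 95, 126 and 109 in wt -SG carbo. All 12 cis libraries lay between 2 and 10 counts and all 12 cis SSP libraries between 0 and 4, so neither line reached the lowest wt library. The depth-corrected ratio of wt to cis SSP was 13.3 (exact 95% interval 5.88 to 37.2, counting error only). Under carboplatin the ratio of wt to cis was 11.4 (7.24 to 19.02) and that of wt to cis SSP, which had 3 counts in all, was 89.5 (30.3 to 437). In complete medium cis SSP had 6 counts against 19 in cis, a ratio of 0.339 (0.111 to 0.882). In edgeR with no filter on low counts and library 25 kept, this difference, at -1.53 on the log2 scale (SE 0.531), missed the threshold (adjusted p = 0.0789). Among the cis and cis SSP conditions, only in cis -SG cells did the counts differ with carboplatin beyond counting error, with 24 against 10 counts and a ratio of 2.65 (1.22 to 6.20), and here too edgeR with no filter made no call (adjusted p = 0.147).

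**Figure D1:**
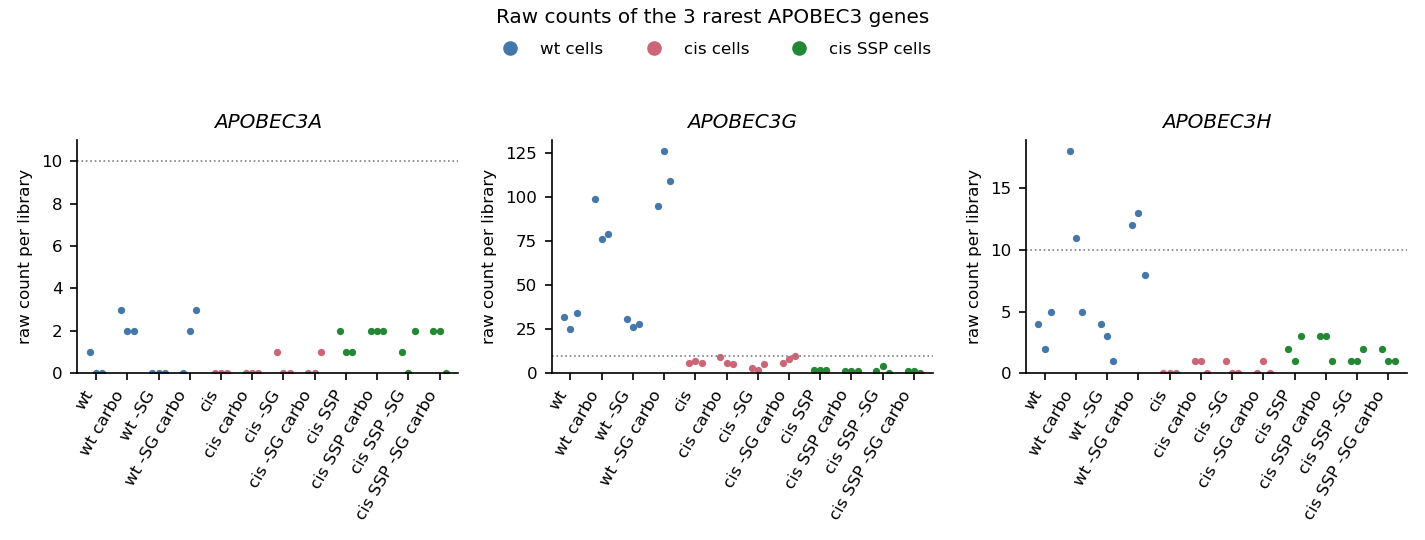
Raw counts per library (y axis, linear, a different scale for each gene) of APOBEC3A, APOBEC3G and APOBEC3H in the 12 conditions (x axis), 1 point for each of 3 libraries, colored by cell line, with a dotted line at the 10 counts used for detection. APOBEC3A stays at 3 or below in all 36 libraries, APOBEC3G is above 10 in the 12 wt libraries alone, and the highest APOBEC3H counts, up to 18, are in carboplatin-treated wt cells.

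Levels of different members were compared per length, as CPM per kb of exon. APOBEC3C, a single-domain enzyme, was the most abundant member in every condition, with 30.1 CPM per kb in wt, 39.6 in cis and 57.5 in cis SSP. APOBEC3B came next, with 8.46, 24.3 and 31.6 CPM per kb in the same conditions. Without library 25 the cis SSP levels were 57.8 for APOBEC3C and 29.6 for APOBEC3B. The double-domain restriction factors APOBEC3D (4.004, 4.26 and 6.41) and APOBEC3F (4.54, 3.52 and 4.99) were lower. APOBEC3G had 0.306 CPM per kb in wt and 0.0682 in cis.

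The members differed in how far they varied across the series. On the scale of library-normalized CPM, APOBEC3B spanned 10.5 to 70.4 over the 36 libraries, a 6.71-fold range, while APOBEC3C spanned 2.66-fold (75.3 to 200.4), APOBEC3D 2.87-fold (6.95 to 19.9) and APOBEC3F 2.06-fold (17.5 to 36.1). The APOBEC3B levels of the lines did not overlap between wt and either of the others. In wt they ranged from 10.5 to 19.6 CPM, in cis from 24.6 to 56.4 and in cis SSP from 50.2 to 70.4. In the order of its condition means the 4 cis SSP conditions came first, each overlapping the next, from cis SSP -SG carbo at 67.5 ± 2.55 CPM (mean ± SD, n = 3 here and below) to cis SSP -SG at 54.6 ± 7.28. Then came cis carbo at 53.6 ± 2.54, which overlapped cis SSP -SG, cis at 46.0 ± 1.33, and cis -SG carbo and cis -SG, which overlapped at 26.3 ± 0.648 and 25.96 ± 1.16. Below them wt -SG carbo (17.9 ± 1.52), wt (16.03 ± 0.230), wt carbo (14.1 ± 0.599) and wt -SG (10.9 ± 0.622) did not overlap with one another. Without libraries 25 and 32 the mean of cis SSP was 56.1 and that of cis SSP -SG 50.4, and the latter then lay below cis carbo.

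For APOBEC3C the top conditions were cis SSP -SG carbo at 193 ± 7.02 CPM and cis SSP carbo at 186 ± 1.69, which overlapped, and the lowest were wt at 79.6 ± 3.97 and wt -SG at 79.4 ± 2.58, which overlapped as well. In each line and each medium, carboplatin-treated libraries were all above untreated ones. APOBEC3D was highest in the 4 cis SSP conditions, at 14.2 to 16.2 CPM, and lowest in cis -SG carbo at 8.09 ± 0.991. Without libraries 25 and 32 its means in cis SSP and cis SSP -SG were 14.6 and 12.9 CPM. APOBEC3F had another order, led by wt -SG carbo at 35.2 ± 1.34 and wt carbo at 31.7 ± 0.740, whereas the 4 cis conditions lay together at 18.3 to 18.7 CPM and overlapped.

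**Figure D2:**
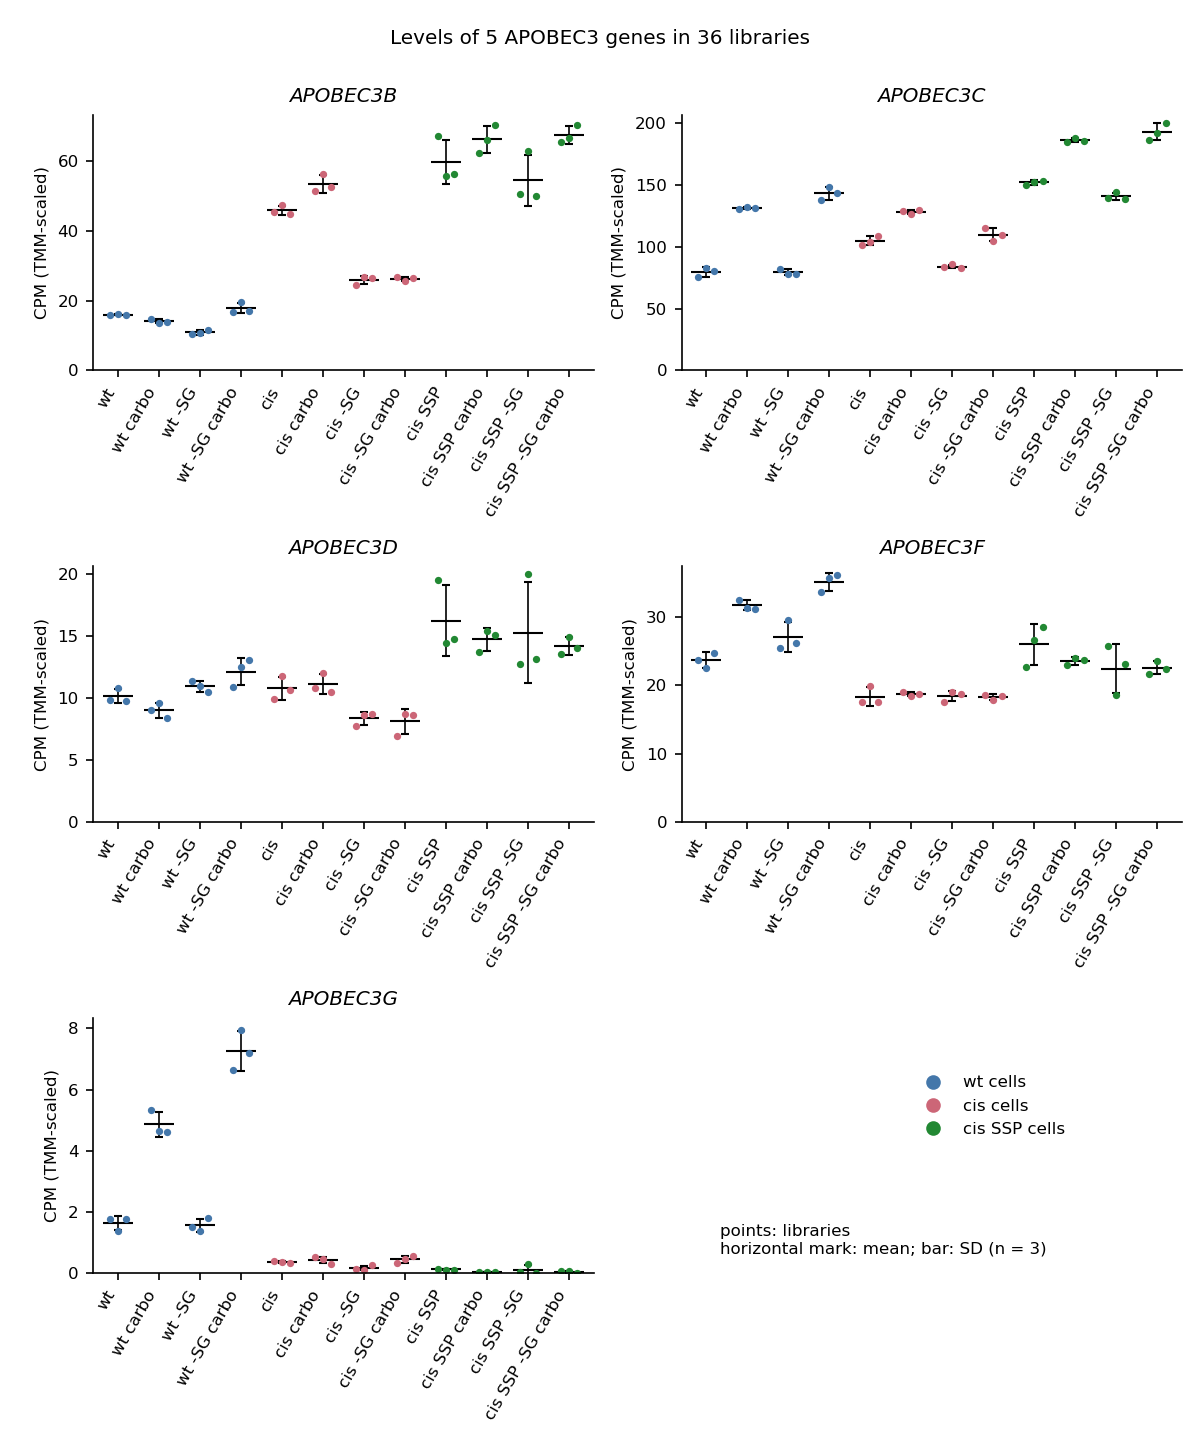
Levels of the 5 members detected in any condition, in CPM scaled by the trimmed mean of M values (y axis from 0, one scale per gene), by condition (x axis), with 1 point per library, the mean as a horizontal mark and the SD as a bar (n = 3). APOBEC3B is above 24 CPM in all cis and cis SSP libraries and below 20 in all wt libraries, APOBEC3C is higher with carboplatin in each line, and APOBEC3G is above 1 CPM in wt libraries alone.

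Resistant cells were then compared with sensitive cells in complete medium. Genes were tested with edgeR's quasi-likelihood test and called at a Benjamini-Hochberg adjusted p under 0.05 over all genes tested. Of the 7 members 5 passed the filter on low counts, and 4 of these were called, against 78.5% of all 14431 genes tested, so being called set no member apart here. The size and direction differed from member to member. In bulk libraries a smaller share of cells that express a gene and less RNA per cell cannot be told apart. APOBEC3B had 15.9, 16.3 and 15.9 CPM in wt and 45.6, 47.5 and 44.9 in cis, which was 2.83-fold higher (log2 fold change 1.503, SE 0.0578, adjusted p = 7.28e-27). All cis libraries were above all wt libraries by a wide margin. APOBEC3C rose 1.30-fold (log2 0.38, SE 0.0367, adjusted p = 1.09e-12), from 75.3, 83.1 and 80.3 CPM to 102, 104 and 109. APOBEC3F was 1.31-fold lower in cis (log2 -0.38, SE 0.0683, adjusted p = 2.34e-06), with 17.5, 19.9 and 17.6 CPM against 23.7, 22.5 and 24.8. APOBEC3G was 4.496-fold lower (log2 -2.17, SE 0.310, adjusted p = 2.94e-08). It passed the filter through the wt libraries alone, so this value is a description, and with at least 10 counts asked of every library it was not tested and 3 members were called. The CPM of APOBEC3D was 10.8 ± 0.933 in cis and 10.1 ± 0.577 in wt, with overlapping libraries, and no call was made (log2 0.08, SE 0.0920, adjusted p = 0.452). The median log2 fold change of the 5 members was 0.08, beside -0.0041 over all genes tested. Of 3 epithelial markers tested 1 was called higher, KRT18 (log2 4.76, SE 0.157), and 1 lower, and their part was not tested.

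In cis SSP cells compared with the cis cells they came from, the 4 members that passed the filter were all called higher, against 29.1% of genes tested. APOBEC3C had 150.2, 152 and 153 CPM in cis SSP, 1.43-fold above cis (log2 0.52, SE 0.0923, adjusted p = 0.00801). APOBEC3D had 19.5, 14.4 and 14.7 CPM against 9.91, 11.8 and 10.6 (log2 0.56, SE 0.142, adjusted p = 0.0282). APOBEC3F had 22.7, 26.7 and 28.6 CPM against 17.5, 19.9 and 17.6 (log2 0.49, SE 0.138, adjusted p = 0.0412). APOBEC3B had 67.2, 55.8 and 56.5 CPM (log2 0.36, SE 0.0993, adjusted p = 0.0384). Replicate 1, library 25, was the highest of its condition for APOBEC3B and APOBEC3D and the lowest for APOBEC3F, while the libraries of cis SSP and cis did not overlap for any of the 4. Without library 25 all 4 calls were made, against 65.4% of genes in the same fit, with smaller standard errors and log2 fold changes of 0.30 for APOBEC3B, 0.56 for APOBEC3C, 0.44 for APOBEC3D and 0.60 for APOBEC3F. With it kept, leaving out any one of the other 5 libraries cut the number of calls, to 0 without cis replicate 1 or 2, 1 without cis replicate 3 or cis SSP replicate 3, and 2 without cis SSP replicate 2. Of all genes, 3990 were called with all libraries and as few as 1995 with a cis library left out.

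The same lines were compared without serine and glycine. Here 3 of 4 members tested were called higher in cis SSP -SG than in cis -SG, against 44.8% of genes tested. APOBEC3B had 50.6, 63.0 and 50.2 CPM against 24.6, 26.7 and 26.5, a 2.00-fold difference (log2 1.001, SE 0.115, adjusted p = 0.00107) and no overlap between the lines. APOBEC3C was 1.60-fold higher (log2 0.68, SE 0.0843, adjusted p = 0.00139) and APOBEC3D 1.73-fold higher (log2 0.79, SE 0.189, adjusted p = 0.0165). Replicate 2, library 32, was again the highest of cis SSP -SG for APOBEC3B and APOBEC3D, at 63.0 and 19.9 CPM, and the lowest for APOBEC3F, at 18.5 CPM. APOBEC3F was not called with it (log2 0.22, SE 0.152, adjusted p = 0.281) and was called without it (log2 0.36, SE 0.0729, adjusted p = 2.40e-05). The other calls held without library 32, at log2 0.91 for APOBEC3B, 0.68 for APOBEC3C and 0.58 for APOBEC3D. That is 4 of 4 members, against 75.5% of genes in the same fit. With it kept, APOBEC3D lost its call without any one of the cis -SG libraries, which left 2 calls. Of all genes, 6421 were called with all libraries and as few as 4011 with a cis -SG library left out.

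Carboplatin in complete medium was compared next, first in wt cells. Of 5 members tested 4 were called, 3 higher and 1 lower, against 77.8% of all genes tested. APOBEC3G was 2.97-fold higher, with 5.35, 4.63 and 4.62 CPM in wt carbo against 1.77, 1.38 and 1.78 in wt (log2 1.57, SE 0.172, adjusted p = 1.49e-18). APOBEC3C was 1.66-fold higher, at 131, 132 and 131 CPM (log2 0.73, SE 0.0305, adjusted p = 2.55e-95). APOBEC3F was 1.34-fold higher, at 32.6, 31.4 and 31.2 CPM (log2 0.43, SE 0.0568, adjusted p = 3.41e-13). For these 3 the groups did not overlap and the treated libraries were the higher ones. APOBEC3B moved the other way and less, with 14.8, 13.7 and 13.8 CPM against 15.9, 16.3 and 15.9 (log2 -0.18, SE 0.0755, adjusted p = 0.0272). This call was lost with DESeq2 (adjusted p = 0.163), in one fit over the 36 libraries, and without wt carbo replicate 2 (adjusted p = 0.0881) or 3 (0.0816). APOBEC3D had 8.99 ± 0.600 CPM against 10.1 ± 0.577 and was not called (adjusted p = 0.0993). The median of the 5 members was 0.43, beside -7.4e-04 over all genes. Of the leukocyte markers only ITGAM passed the filter here, and it was higher with carboplatin (log2 4.27, SE 0.202), while CD3E stayed at 0 and PTPRC at 0 or 1 count; the part of such cells in the APOBEC3 values was not tested. Of 4 epithelial markers tested 3 were called, all higher with carboplatin (median log2 3.52), and their list summed to 16.5 to 17.3 CPM in wt carbo against 1.83 to 2.37 in wt, a shift whose part was not tested either.

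In cis cells the same treatment gave 2 calls among 4 members tested, against 20.1% of genes. APOBEC3C rose 1.23-fold, to 129, 126 and 130 CPM (log2 0.30, SE 0.0337, adjusted p = 9.73e-08), and APOBEC3B rose 1.17-fold, to 51.5, 56.4 and 52.8 CPM (log2 0.23, SE 0.0483, adjusted p = 0.00104). Neither gene's treated libraries overlapped with the untreated ones, and in one fit over the 36 libraries the call of APOBEC3B was lost, which left 1. APOBEC3D (log2 0.04, SE 0.0944) and APOBEC3F (log2 0.04, SE 0.0728) were not called, at adjusted p = 0.809 and 0.758.

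The responses of both lines were compared directly, as the response in wt minus that in cis. This difference was called for 4 of 5 members tested, against 57.6% of genes. It was positive for APOBEC3G (log2 1.33, SE 0.495, adjusted p = 0.0179), APOBEC3C (log2 0.42, SE 0.0466, adjusted p = 8.89e-12) and APOBEC3F (log2 0.38, SE 0.0914, adjusted p = 2.68e-04). It was negative for APOBEC3B (log2 -0.41, SE 0.0866, adjusted p = 5.24e-05), the member whose values went down in wt and up in cis. APOBEC3G passed the filter here through the wt and wt carbo libraries alone, with 5 to 9 counts in each cis and cis carbo library. Its value is therefore a description, and it just missed the threshold in DESeq2 (adjusted p = 0.0506) and without cis carbo replicate 3.

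In cis SSP cells no member was called after carboplatin, against 2.72% of genes tested by edgeR, with 1 member of 4 at an unadjusted p under 0.05 and 1 called by DESeq2. APOBEC3C had 185, 188 and 185 CPM in cis SSP carbo, all above the 150.2 to 153 CPM of cis SSP (log2 0.33, SE 0.0862, adjusted p = 0.127, and 0.0317 in DESeq2). Without library 25 the number called rose to 3, against 41.2% of genes in the same fit, with APOBEC3C (log2 0.30, SE 0.0295, adjusted p = 3.48e-09) and APOBEC3B (log2 0.26, SE 0.0487, adjusted p = 9.82e-05) higher and APOBEC3F (log2 -0.21, SE 0.0645, adjusted p = 0.0103) lower.

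Deprivation of serine and glycine was the next comparison. In wt cells 2 of 5 members tested were called, against 49.2% of genes. APOBEC3B fell 1.47-fold, to 10.5, 10.7 and 11.6 CPM, below every wt library (log2 -0.56, SE 0.0767, adjusted p = 4.48e-06). APOBEC3F was 1.14-fold higher, at 25.4, 29.6 and 26.2 CPM (log2 0.19, SE 0.0655, adjusted p = 0.0184), a call that was lost with DESeq2 (adjusted p = 0.0934), in one fit over the 36 libraries and without wt replicate 2 or wt -SG replicate 2, which left 1 call. The levels of APOBEC3C were 79.4 ± 2.58 and 79.6 ± 3.97 CPM, and APOBEC3G had 1.57 ± 0.214 against 1.64 ± 0.231 CPM.

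In cis cells deprivation gave 3 calls among 4 members tested, all lower, against 75% of genes. APOBEC3B fell 1.70-fold, from 45.6, 47.5 and 44.9 CPM to 24.6, 26.7 and 26.5 (log2 -0.77, SE 0.0537, adjusted p = 2.39e-17). APOBEC3D fell 1.24-fold, to 7.70, 8.62 and 8.69 CPM (log2 -0.31, SE 0.0963, adjusted p = 0.00331), and APOBEC3C 1.20-fold, to 83.3, 85.7 and 82.8 CPM (log2 -0.26, SE 0.0368, adjusted p = 2.48e-08). For these 3 members every deprived library was below every library in complete medium. The 3 epithelial markers tested here were all called higher (median log2 1.67). APOBEC3F was not called (log2 0.07, SE 0.0719, adjusted p = 0.408). The difference between the responses, wt minus cis, was called for APOBEC3C (log2 0.24, SE 0.0541, adjusted p = 2.29e-04) and APOBEC3D (log2 0.41, SE 0.128, adjusted p = 0.00626), that is 2 of 5 members tested, against 54% of genes, and the call of APOBEC3D was lost in one fit over the 36 libraries. For APOBEC3B, which fell in both lines, it was not called (log2 0.19, SE 0.0925, adjusted p = 0.0771). It was called without cis replicate 3 (log2 0.23, adjusted p = 0.0452) or cis -SG replicate 2 (0.23, adjusted p = 0.0458). APOBEC3G, counted among the 5, was not called either (log2 0.91, SE 0.562, adjusted p = 0.174). It passed the filter through the wt and wt -SG libraries alone, with 2 to 7 counts in each cis and cis -SG library. Its value is therefore a description.

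In cis SSP cells deprivation gave no call among the 4 members tested with edgeR, against 0.0218% of genes, and none had an unadjusted p under 0.05 or was called by DESeq2. APOBEC3B had 50.6, 63.0 and 50.2 CPM in cis SSP -SG and 67.2, 55.8 and 56.5 in cis SSP (log2 -0.12, SE 0.135). Without libraries 25 and 32 the number of calls was 2, against 35.9% of genes in the same fit, with APOBEC3B at -0.15 (SE 0.0520, adjusted p = 0.0298) and APOBEC3C at -0.13 (SE 0.0354, adjusted p = 0.00660). The response of cis SSP minus that of cis was called for APOBEC3B (log2 0.65, SE 0.154, adjusted p = 0.0150), 1 of 4 members tested, against 17.1% of genes, and it was 0.62 (SE 0.0745, adjusted p = 1.13e-09) without both libraries, where 55.4% of genes were called.

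Carboplatin was also given in medium without serine and glycine. In wt cells 4 of 5 members tested were called, all higher, against 68.9% of genes. APOBEC3G was 4.68-fold higher, with 6.66, 7.95 and 7.21 CPM against 1.53, 1.38 and 1.80 (log2 2.23, SE 0.149, adjusted p = 1.00e-06). APOBEC3C was 1.81-fold higher, at 138, 148 and 144 CPM (log2 0.85, SE 0.0555, adjusted p = 8.20e-07). APOBEC3B was 1.65-fold higher, at 16.9, 19.6 and 17.1 CPM against 10.5, 10.7 and 11.6 (log2 0.72, SE 0.0894, adjusted p = 6.80e-05). APOBEC3F was 1.30-fold higher, at 33.6, 35.7 and 36.1 CPM (log2 0.38, SE 0.0750, adjusted p = 0.00139). In all 4 genes the treated libraries were above the untreated ones. Of 4 epithelial markers tested 3 were again called higher (median log2 4.35). APOBEC3D had 12.1 ± 1.12 against 10.9 ± 0.447 CPM and was not called (adjusted p = 0.185).

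Whether the carboplatin response of wt cells differed with the medium was tested as the response without serine and glycine minus that in complete medium. With the 12 libraries in the fit 6 members passed the filter, and 2 were called, against 27.7% of genes. The difference was 0.89 for APOBEC3B (SE 0.108, adjusted p = 1.67e-05), which was lower with carboplatin in complete medium and higher with it in deprived medium. It was 0.65 for APOBEC3G (SE 0.228, adjusted p = 0.0430), a call lost with DESeq2 (adjusted p = 0.102) and, leaving 1 call, without any one of 8 of the 12 libraries. These were wt replicates 1 and 3, wt carbo replicates 2 and 3, wt -SG replicates 1 and 2 and wt -SG carbo replicates 2 and 3. For APOBEC3H the difference was not called (log2 0.57). It passed the filter through carboplatin-treated libraries alone, with 1 to 5 counts in each wt and wt -SG library, so this value is a description.

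In cis -SG cells carboplatin gave 1 call among 4 members tested, against 22.5% of genes. The number was also 1 without either of the treated replicates with many reads on no feature. Of all genes, 3253 were called with all libraries and 1666 to 5224 with 1 library left out. APOBEC3C rose 1.31-fold, from 83.3, 85.7 and 82.8 CPM to 115, 104 and 109 (log2 0.39, SE 0.0402, adjusted p = 2.51e-05). APOBEC3B was not called, with 26.7, 25.6 and 26.6 CPM against 24.6, 26.7 and 26.5 (log2 0.03, SE 0.0591, adjusted p = 0.763). In cis SSP -SG cells edgeR called no member, against 1.47% of genes, with 2 of 4 at an unadjusted p under 0.05 and 1 called by DESeq2. APOBEC3C had 186, 192 and 200.4 CPM with carboplatin and 139, 144 and 139 without (log2 0.47, SE 0.0858, adjusted p = 0.0650, and 5.95e-04 in DESeq2). APOBEC3B had 65.5, 66.7 and 70.4 CPM with the drug (log2 0.32, SE 0.119, adjusted p = 0.278). Without library 32, APOBEC3C (log2 0.50, SE 0.0341, adjusted p = 4.44e-10) and APOBEC3B (log2 0.45, SE 0.0475, adjusted p = 2.81e-07) were both called, 2 in all, against 41.1% of genes in the same fit.

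**Figure D3:**
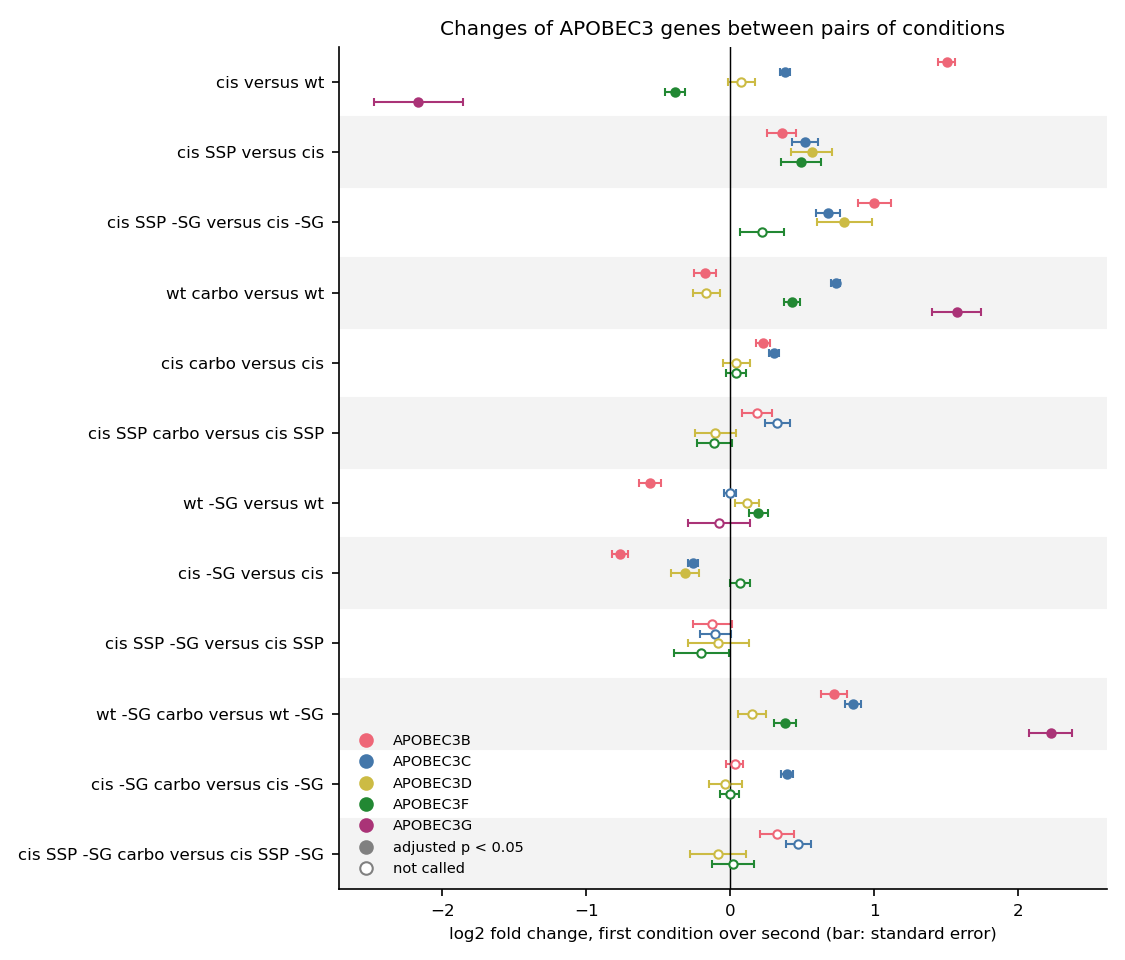
Log2 fold change (x axis) of the first over the second condition in the 12 pairs of conditions (y axis), for the 5 members detected in any condition, with its standard error as a bar; filled points passed an adjusted p of 0.05 in edgeR and open ones did not, and members that failed the filter on low counts are left out. APOBEC3C lies to the right in all 6 carboplatin pairs, from 0.30 to 0.85, APOBEC3B lies to the left in all 3 deprivation pairs, and APOBEC3G has the lowest and highest values, -2.17 in cis versus wt and 2.23 in wt -SG carbo versus wt -SG.

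The make-up of the family shifted with these changes. Summed per length, the 7 members had 47.6 ± 1.57 CPM per kb in wt, 68.3 ± 0.773 in wt carbo, 71.7 ± 1.64 in cis, 52.3 ± 1.29 in cis -SG and 101 ± 3.49 in cis SSP. The highest sum was that of cis SSP -SG carbo, at 119 ± 4.03. APOBEC3B made up 17.8% ± 0.473 of the sum in wt and 10.9% ± 0.395 in wt carbo. Its share was 33.8% ± 0.972 in cis, 26.2% ± 0.634 in cis -SG and 31.3% ± 2.24 in cis SSP. Without library 25 the cis SSP sum was 98.6 CPM per kb and the APOBEC3B share 30.03%. APOBEC3C was the larger part throughout, with 63.2% ± 1.08 in wt, 72.8% ± 0.992 in wt carbo, 55.2% ± 1.42 in cis and 57.2% ± 2.48 in cis SSP. Shares of a sum are tied to one another, so they describe the mixture and add no test.

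**Figure D4:**
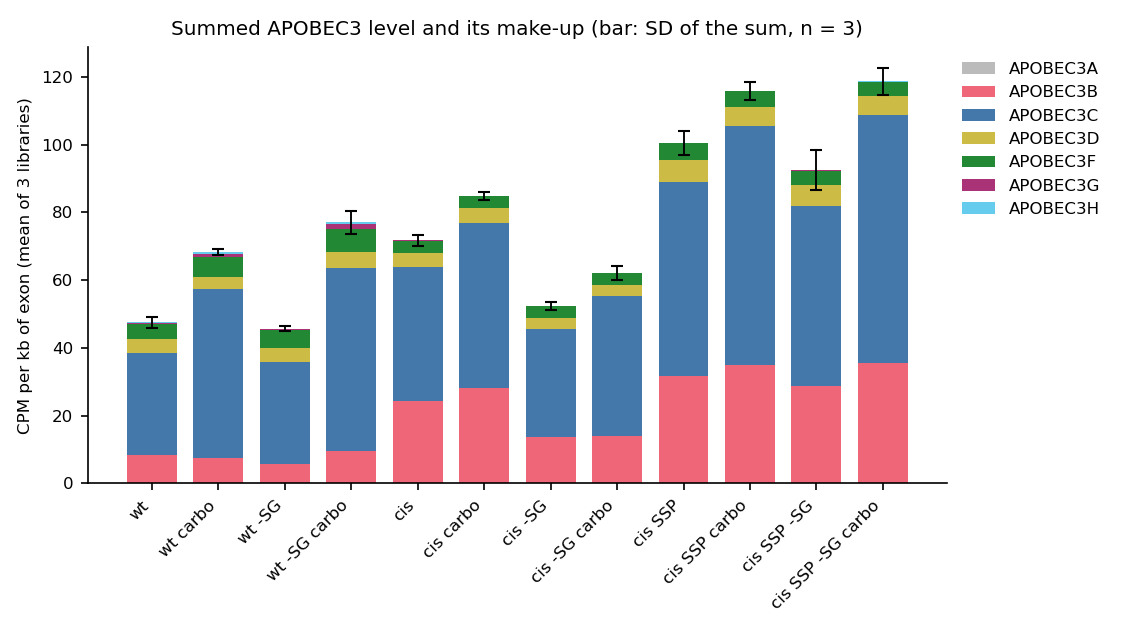
Summed level of the 7 APOBEC3 genes in CPM per kb of exon (y axis from 0) in the 12 conditions (x axis), as stacked means of 3 libraries with the SD of the sum as a bar. APOBEC3C and APOBEC3B make up most of each bar, the sum runs from 45.7 in wt -SG to 119 in cis SSP -SG carbo, and the APOBEC3B part is larger in cis and cis SSP than in wt.

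The 4 detected members did not share one pattern over the conditions. Over the 12 condition means of log2(CPM + 1), the Pearson correlation of APOBEC3B was 0.69 with APOBEC3C, 0.64 with APOBEC3D and -0.46 with APOBEC3F, and without libraries 25 and 32 it was 0.68, 0.62 and -0.41. These points share libraries, lines and depth, and the values are given as a description. Among 10909 other protein-coding genes the ones most like APOBEC3B by this measure were NMB (0.99), C7orf31 (0.98) and SPTB (0.98). For APOBEC3C they were TRIAP1, which restrains apoptosis (0.98), AQP3, a water and glycerol channel (0.97), and RABGGTA, a Rab prenylation enzyme (0.96). For APOBEC3D they were BABAM1, a member of the BRCA1-A complex (0.96), SGSH (0.96) and METAP2 (0.96), and for APOBEC3F they were the co-receptor NRP1 (0.97), the lysosomal protease CTSB (0.97) and the kinase MAP3K8 (0.97). The ranks depend on the measure. By Spearman's rho over the 36 libraries NMB was 2nd, C7orf31 50th and SPTB 76th for APOBEC3B, CTSB was 96th and MAP3K8 277th for APOBEC3F, and the other 7 named genes were among the first 10, while the leading gene was another one for APOBEC3B, APOBEC3C and APOBEC3D.

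Of 22 genes of uracil removal and base excision repair, the steps downstream of a deaminase, 16 were called in cis versus wt, against 78.5% of all genes, 8 higher and 8 lower (median log2 -0.0020). The DNA glycosylases NEIL3 (log2 1.21, SE 0.0785), NEIL2 (0.91, SE 0.0444) and OGG1 (0.63, SE 0.0496) were higher, and NEIL1 (-0.50, SE 0.110), MUTYH (-0.48, SE 0.0755) and SMUG1 (-0.32, SE 0.0651) were lower. With carboplatin in wt cells 17 of the 22 were called, against 77.8% of all genes, 14 of them lower and 3 higher (median log2 -0.50). The lower ones included NEIL3 (-2.59, SE 0.142), the dUTPase DUT (-1.40, SE 0.0383), which keeps uracil out of new DNA, and NTHL1 (-1.21, SE 0.0713). The 3 higher ones were the uracil glycosylase SMUG1 (0.43, SE 0.0559), APEX2 (0.27, SE 0.0424) and TDG (0.11, SE 0.0425).

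Regulators that have been tied to APOBEC3 transcription were described in the same way. Of 14 genes of B-MYB, the DREAM complex and the DNA damage checkpoint, 13 were called in cis versus wt, 8 higher and 5 lower (median log2 0.22), with MYBL2, the gene of B-MYB, at 0.54 (SE 0.0264). With carboplatin in wt cells 13 were called, 4 higher and 9 lower (median -0.39), among them the cell cycle inhibitor CDKN1A at 3.67 (SE 0.0210) and the ubiquitin ligase MDM2 at 1.81 (SE 0.0225), and FOXM1 at -1.75 (SE 0.0343) and MYBL2 at -1.45 (SE 0.0302). Of 10 NF-kB regulators 7 were called in cis versus wt, 5 higher and 2 lower (median 0.06), and 10 with carboplatin in wt cells, 9 higher and 1 lower (median 1.62). BIRC3 (4.50, SE 0.0443), TNFAIP3 (3.30, SE 0.131) and NFKBIA (2.43, SE 0.0324) were the highest of these, and PRKCA was the lower one (-1.22, SE 0.0996). In the interferon response list 23 of 25 genes were tested. In cis versus wt 20 were called, 4 higher and 16 lower (median -0.81), with JAK1 at 5.45 (SE 0.0328) and the induced gene OAS2 at -4.78 (SE 0.152). With carboplatin in wt cells 20 were called, 17 higher and 3 lower (median 0.40), with IFIT3 at 2.08 (SE 0.0284), IRF1 at 1.64 (SE 0.0272) and OAS2 at 1.48 (SE 0.0524). These shares stand beside 78.5% of all genes in the first comparison and 77.8% in the second, and whether these genes have a part in the APOBEC3 changes was not tested.

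The 3 protein-coding genes on each side of the cluster are given for some of the comparisons. In cis versus wt CBX6, the nearest before APOBEC3A, was higher (log2 0.84, SE 0.0282), DNAL4 (-0.44, SE 0.111), PDGFB (-3.70, SE 0.449) and the ribosomal protein gene RPL3 (-0.36, SE 0.0230) were lower, and CBX7, the nearest after APOBEC3H, and NPTXR were not called. With carboplatin in wt cells CBX6 (0.88, SE 0.0237) and PDGFB (3.76, SE 0.129) were higher and CBX7 (-0.71, SE 0.0756) and RPL3 (-0.36, SE 0.0174) were lower. In cis -SG versus cis all 5 neighbors tested were called higher, from 0.50 to 0.75, against 75% of all genes called, while the 3 APOBEC3 members called were lower. In wt -SG versus wt, where 49.2% of genes were called, the neighbors went both ways. DNAL4, RPL3 and CBX6 were higher there, CBX7 and NPTXR lower, and PDGFB was not called.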

How the data were processed

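RNA-seq counts of 36 libraries of A2780 wt, cis and cis SSP cells were used, grouped by the labels into 12 conditions with 3 libraries each. The labels number no replicates within a condition, and the numbers here follow the order of the samples. The authors sequenced single-end 65-base reads, aligned them to GRCh37.p13 with STAR, counted reads on GENCODE v19 exons with HTSeq and deposited raw counts per gene. How reads with several alignments were treated is not given in the sources used here. GENCODE v44, in its version for GRCh37, gave exon lengths and named 55538 of 57820 identifiers. The table's 3 rows that name no gene stayed out of library sizes and tests, and reads on no feature were 4.21% to 17.9% of a library. The depth of 13074937 to 20441582 counts per library sets the counting noise. Exact intervals and the limit of 3 counts cover counting error only.

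Counts were tested with edgeR 4.0.16 in R 4.3.3 (TMM, filterByExpr, estimateDisp, robust glmQLFit, glmQLFTest), each of the 12 pairs of conditions and 4 differences between responses on the libraries of its own conditions. SE is the absolute log2 fold change over the square root of F. DESeq2 1.42.0, which the study used, other scalings and filters, 1 fit over all 36 libraries, a further limit of 1 on the absolute log2 fold change and left-out libraries were alternatives. Levels are TMM-scaled CPM, divided by kb of exon between genes. Tables were handled with Python 3.11.15, pandas 2.3.3 and scipy 1.17.1 and plots drawn with matplotlib 3.10.9. The fits were tested on simulated counts with known changes.

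The members, gene lists and comparisons were chosen with earlier results of these data known. The 7 members are named throughout. From each other list at most 3 called genes per direction with the largest change in cis versus wt and wt carbo versus wt are named, provided their mean was 50 counts or more, as are the 3 genes most like each member that has such a mean and the 3 nearest protein-coding genes on each side. Markers of epithelial tumor cells, leukocytes, fibroblasts and endothelial cells were read for the check of cell type. The values of a few genes of these lists are not reported here.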

Additional observations from a re-analysis of the deposited data

Results flagged for a closer look

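The 9 values here are differences between 2 responses of the same kind that passed the interaction test (edgeR, adjusted p under 0.05). For carboplatin in complete medium, the response of wt minus that of cis cells was -0.41 on the log2 scale for APOBEC3B, 0.42 for APOBEC3C, 0.38 for APOBEC3F and 1.33 for APOBEC3G. The last value is a description, since APOBEC3G passed the filter through the wt and wt carbo libraries alone. For deprivation it was 0.24 for APOBEC3C, which fell in cis cells and had log2 3.07e-05 in wt cells, and 0.41 for APOBEC3D, which fell in cis cells and had 0.12 in wt cells. The deprivation response of cis SSP minus that of cis cells was 0.65 for APOBEC3B. In wt cells the carboplatin response without serine and glycine minus that in complete medium was 0.89 for APOBEC3B and 0.65 for APOBEC3G. No condition has enough libraries for a test of outlying samples.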

How the results depend on the processing

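The number of members detected per condition stayed within 1.5 times the value given with 5 or 50 counts or 1 CPM as the limit. Which members were detected depended on the limit, however. With 5 counts APOBEC3G was detected in 7 conditions, with cis, cis carbo and cis -SG carbo added, and APOBEC3H in wt carbo and wt -SG carbo. With 50 counts APOBEC3G was left in wt carbo and wt -SG carbo only. With 1 CPM the members detected were those given. Of the 118 counts of members called under alternatives that keep all libraries or drop libraries 25 and 32, 88 stayed within 1.5 times the value given. The calls rest on small changes: with a further limit of 1 on the absolute log2 fold change, 2 members were called in cis versus wt, 1 in cis SSP -SG versus cis -SG, in either carboplatin comparison of wt cells and in the carboplatin response of wt minus cis, and 0 elsewhere. Among all genes the calls fell with this limit too, from 11322 to 3549 in cis versus wt and from 11396 to 2802 in wt carbo versus wt. In wt -SG carbo versus wt -SG they fell from 9969 to 3204. For the other comparisons the counts with this limit stand without the number of all genes and are no result about the members. DESeq2 called 1 in cis SSP carbo, cis SSP -SG carbo, wt -SG and the medium contrast of the carboplatin response in wt cells. With no filter on low counts 2 were called in cis SSP versus cis and 1 in the medium contrast. In 1 fit over the 36 libraries the number was 1 for cis carbo, cis SSP carbo, wt -SG, the deprivation response of wt minus cis and the medium contrast, and 2 for cis SSP -SG carbo and the deprivation response of cis SSP minus cis. The counts with DESeq2, with no filter and in this fit stand without the share of all genes. They describe the processing and are no result about the members. Without libraries 25 and 32 the number of members called was 3 for cis SSP carbo and 2 for cis SSP -SG, cis SSP -SG carbo and the deprivation response of cis SSP minus cis. Of all genes, 41.2%, 35.9%, 41.1% and 55.4% were called in these fits, in the same order. With 1 library left out at a time the number of members called ran from 0 to 4 in cis SSP versus cis, 0 to 3 in cis SSP carbo, 0 to 2 in cis SSP -SG carbo, and 1 to 2 in wt -SG and 1 to 3 in the medium contrast. Among all genes the calls ran from 1995 to 9262, 9 to 5835 and 0 to 5679 in the first 3 of these. They ran from 6087 to 7001 in wt -SG and from 3455 to 5306 in the medium contrast. Signs turned only for values that were not called. APOBEC3C in wt -SG versus wt was -0.0017 with DESeq2, -5.5e-04 with its size factors, -0.016 with total counts, -0.0068 with no filter, -0.0027 in the fit of all libraries and -0.039 to 0.030 with 1 library left out, and APOBEC3G there ran from -0.19 to 0.0057. With 1 library left out APOBEC3D ran from -0.018 to 0.11 in cis carbo, -0.18 to 0.032 in cis SSP carbo, -0.29 to 0.044 in cis SSP -SG, -0.094 to 0.060 in cis -SG carbo and -0.20 to 0.16 in cis SSP -SG carbo, where the upper ends in cis SSP and cis SSP -SG carbo are those without library 25 or 32. APOBEC3B ran from -0.013 to 0.048 in cis -SG carbo. APOBEC3F there was 0.024 with total counts, 8.2e-04 with at least 10 counts in every library and -0.044 to 0.014 with 1 library left out. It ran from -0.096 (without library 32) to 0.13 in cis SSP -SG carbo and from -0.098 to 0.015 in the medium contrast. The causes were not tested. No paired analysis was possible because the labels give no replicate numbers that conditions share.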
